A study of Mus musculus with 32 samples.

Results

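The 10 genes described here code for positive acute phase proteins, the plasma proteins whose production by the liver goes up in inflammation: the serum amyloid A genes Saa1, Saa2 and Saa3, haptoglobin (Hp), hemopexin (Hpx), the orosomucoids Orm1 and Orm2, serum amyloid P (Apcs), inter-alpha-trypsin inhibitor heavy chain 4 (Itih4) and ceruloplasmin (Cp). They were chosen by name and not by a threshold on their values, although with earlier results of these data known, and all 10 were found among the 54446 genes of the count tables and passed the filter on low counts in every experiment. The 32 libraries are bulk RNA-seq of liver tumors grown from BNL-MEA, a mouse hepatocellular carcinoma cell line, in Balb/c mice, and the study asked what a low dose of regorafenib, an oral multikinase inhibitor, did to the immune setting of these tumors. The dose experiment held 4 vehicle tumors, 3 given regorafenib at 5 mg/kg/day (low dose) and 3 given 20 mg/kg/day (high dose). The DC-101 experiment held 4 vehicle tumors, 3 on the low dose and 3 given 800 μg of DC-101, an antibody that blocks VEGFR2. The anti-PD1 experiment held 3 vehicle tumors, 3 on the low dose, 3 given an antibody against the checkpoint receptor PD1 and 3 given both (combination). All mice carried the same transplanted line, and the labels do not say whether each tumor came from a separate mouse, so that p-values measure the spread between these tumors.

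Hepatocytes make most acute phase proteins. IL-6, acting through STAT3, and IL-1 and TNF, acting through NF-kB and C/EBP factors, raise their transcription, while albumin (Alb) is a negative acute phase protein whose transcription goes down in the same setting. Saa1 and Saa2 are the liver's strongly inducible serum amyloid genes in mice, whereas Saa3 is also made by macrophages, fat cells and epithelia. Because a bulk tumor can hold a varying amount of liver, each member was read both as a level in CPM (counts scaled to library size, after TMM scaling within its experiment) and relative to Alb in the same library. In bulk tissue fewer hepatocytes and less RNA per hepatocyte cannot be told apart.

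The libraries held 16.8 to 27.7 M gene counts, which puts 1 CPM at about as many reads as a library has M counts. The 3 experiments were normalized separately, and levels set side by side across them carry that limit. The summed CPM of 20 hepatocyte genes other than the members ran from 93.0 to 64120.0 over the 32 libraries, and Alb itself from 11.01 to 27943. Ass1, a urea cycle gene among these 20, held 1055 counts or more in every library and adds to the low end of the sum. Alb in the dose experiment stood at 635, 1534, 1400.2 and 2232 CPM in the vehicle tumors, 1219.6, 1030.0 and 10751 on the low dose and 27943, 7037 and 1673 on the high dose. In the DC-101 experiment it stood at 13.5, 335, 2661 and 11.01 CPM in the vehicle tumors, 3258, 546 and 7462 on the low dose and 23.1, 11806 and 9657 with DC-101, so that 3 libraries, vehicle 1 and 4 and DC-101 1, held very little Alb. In the anti-PD1 experiment the vehicle tumors stood high and close together at 5919.6, 5356 and 6103 CPM, above the 1392, 2100.3 and 383 of the low dose, the 280.4, 689.5 and 1486 of anti-PD1 and the 5243, 1633 and 1903 of the combination.

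The levels of Hp, Hpx, Orm1, Apcs and Itih4 followed that of Alb closely over the libraries, and edgeR's quasi-likelihood test called none of the 10 at an adjusted p under 0.05 in any of the 8 comparisons, against 0% of all genes tested for the low dose in the dose experiment, 15.6% for the high dose, 4.22% for the high against the low dose, 0.0248% for the low dose in the DC-101 experiment, and 0% for DC-101, for the low dose in the anti-PD1 experiment, for anti-PD1 and for the combination. At an unadjusted p under 0.05 the members numbered 0, 1, 0, 4, 3, 5, 8 and 1 in that order, beside 4.94%, 40.1%, 29.3%, 17.1%, 13.2%, 11.8%, 13.7% and 8.2% of all genes. DESeq2 called 0, 1, 0, 2, 1, 2, 2 and 1 members in the same order, beside 0.514%, 31.9%, 18.5%, 6.8%, 2.31%, 2.56%, 3.7% and 0.903% of all genes. With limma-voom no member was called in any of the 8, beside 8.16% of all genes for the high dose, 4.73% for the high against the low dose, 0.0248% for the DC-101 experiment's low dose and 0% in the other 5. The median log2 change of the members was 0.55 for the low dose in the dose experiment and 1.69 for the high dose, beside medians over all genes of 0.00 and 0.02. It was 3.26 for the low dose and 3.22 for DC-101 in the DC-101 experiment, and −1.44 for the low dose, −1.74 for anti-PD1 and −0.01 for the combination in the anti-PD1 experiment.

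**Figure D1:**
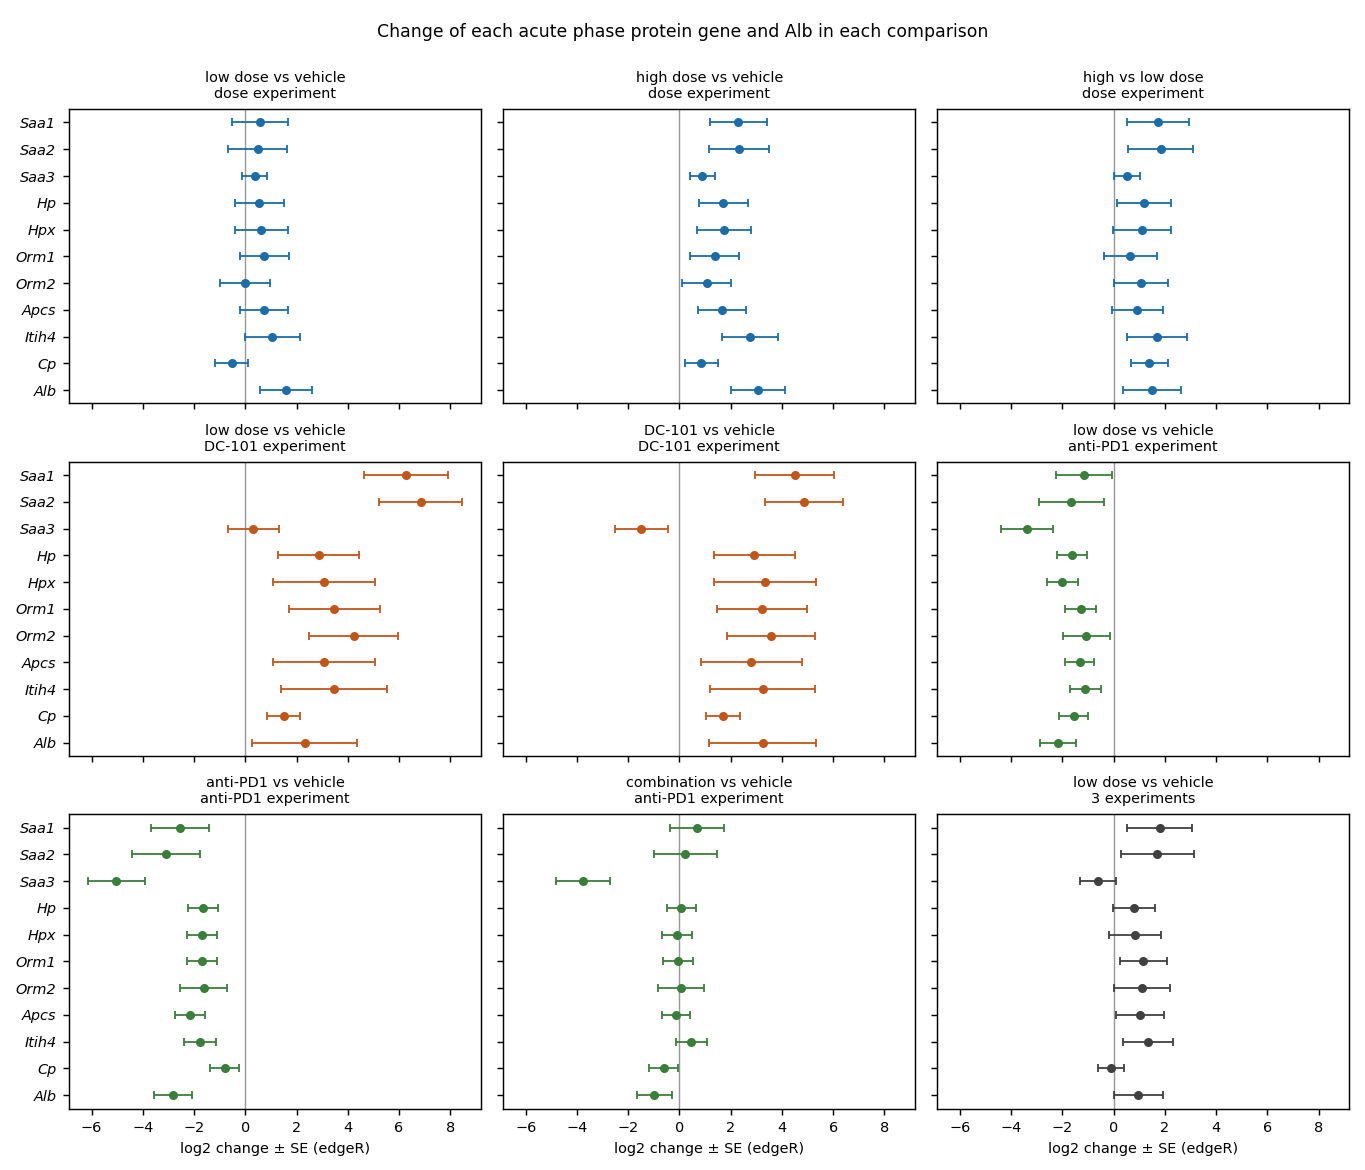
Log2 change with its standard error (edgeR) for the 10 members and Alb in each comparison, against vehicle except where the high dose is set against the low dose. Estimates for the hepatocyte members lay above 0 in the high-dose, DC-101 and DC-101-experiment low-dose comparisons and below 0 for the low dose and anti-PD1 in the anti-PD1 experiment, with standard errors that reach 2.10 for Alb under DC-101.

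Compared per kilobase of exon over the 11 vehicle libraries, the hemoglobin and heme scavengers Hp and Hpx had the highest medians among the members, at 361 and 305 CPM per kb beside 655 for Alb. Apcs followed at 109 CPM per kb and Orm1 at 86.2, then Cp at 46.7, Itih4 at 40.5, Orm2 at 19.4 and Saa3 at 17.5. Saa1 at 1.61 and Saa2 at 0.54 CPM per kb were the lowest. The length used joins all annotated exons of a gene, 2478 bp for Saa1, 2518 bp for Saa2 and 9566 bp for Cp. Levels of genes whose main transcript is shorter than that are too low, and the place of Cp in the order may depend on it. The ranges behind these medians overlapped widely, from 11.9 to 994 CPM per kb for Hp and from 0.124 to 42.1 for Saa1, and neighbors in the order did not separate beyond their spread. The order was another in vehicle 1 and 4 of the DC-101 experiment, where Hpx at 2.98 and 1.47 CPM per kb lay below Cp at 18.2 and 14.4 and Saa3 at 54.5 and 11.1.

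**Figure D2:**
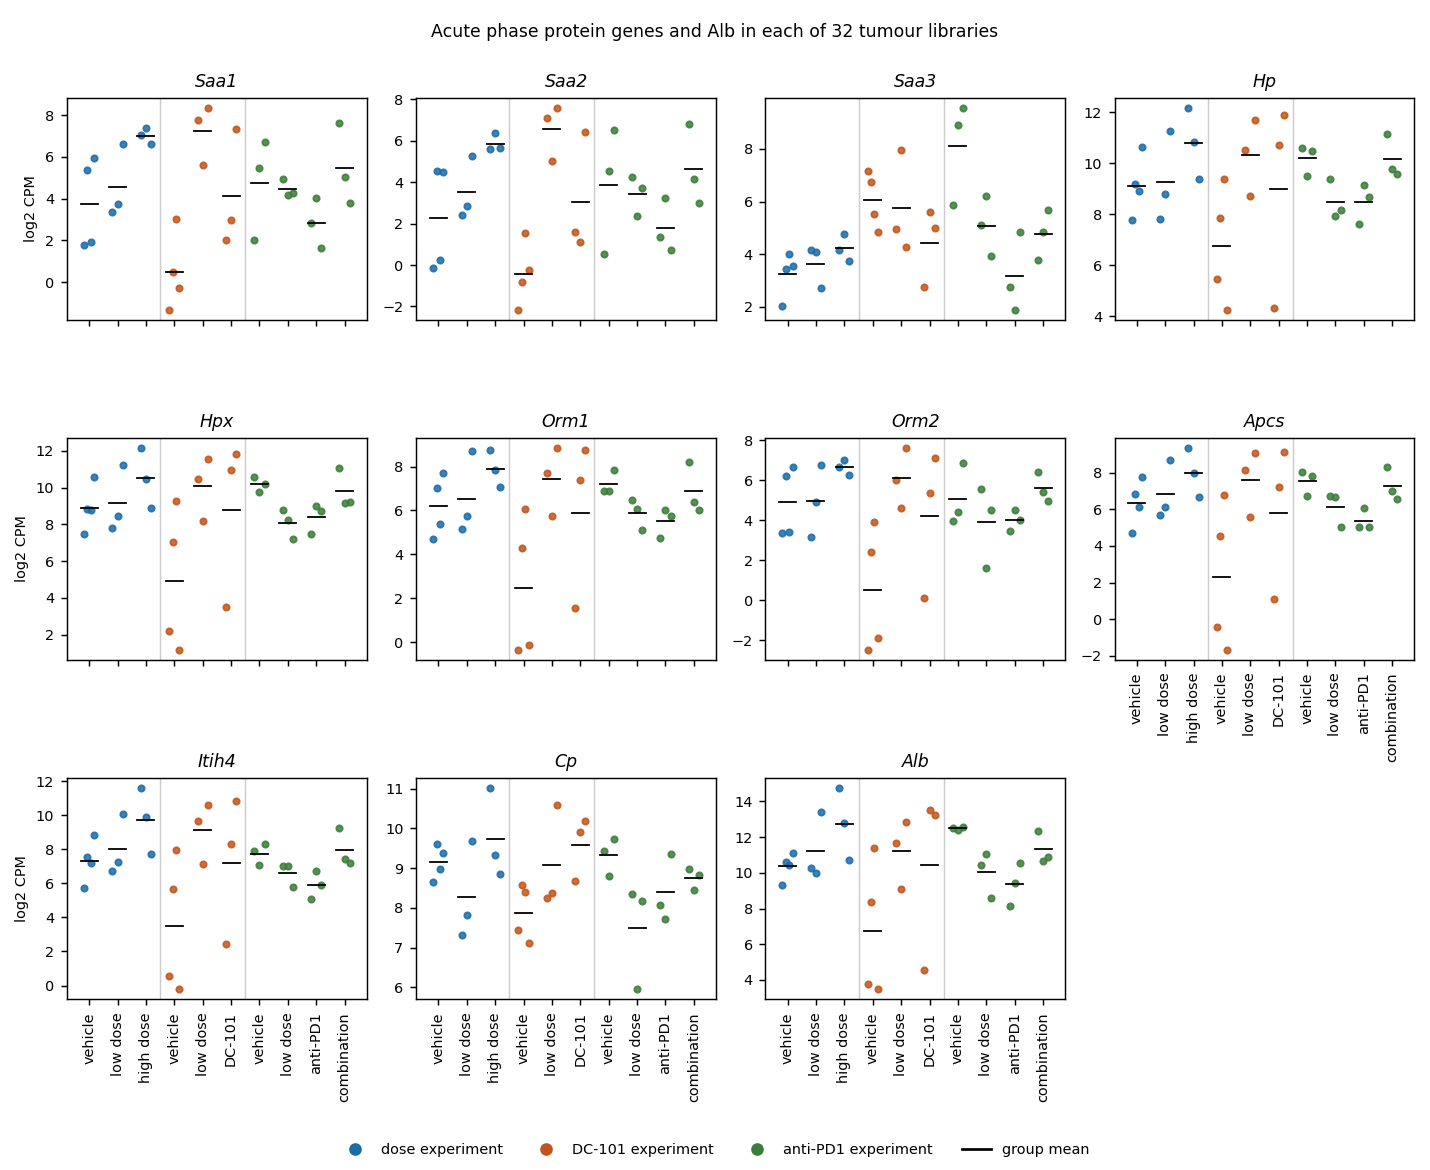
Level of each member and of Alb in each of the 32 libraries, in log2 CPM with a y axis of its own per gene, by group. Points are libraries and bars group means, and vehicle 1 and 4 of the DC-101 experiment lie lowest for Alb, Hpx, Apcs and Itih4 but not for Saa3 or Cp.

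Haptoglobin, which binds free hemoglobin, lies on chromosome 8 (GRCm38, 109575128 to 109579172, minus strand), and hemopexin, which binds free heme, on chromosome 7 (105591613 to 105600137, minus strand). Hpx in the dose experiment stood at 175, 457, 443 and 1527 CPM in the vehicle tumors, 224, 354 and 2418 on the low dose and 4577, 1415 and 478 on the high dose. The groups overlapped, since high-dose tumors 2 and 3 and low-dose tumors 1 and 2 lay within the vehicle range. Hp ran over 220.4 to 1597 CPM in vehicle, 224 to 2469 on the low dose and 669 to 4622 on the high dose, and its high-dose log2 change of 1.72 (SE 0.96), like the 1.73 (SE 1.05) of Hpx, missed the threshold (adjusted p = 0.21 and 0.242, edgeR). In the DC-101 experiment Hpx stood at 4.47, 134, 610.0 and 2.2 CPM in the vehicle tumors, 1417, 294 and 3003 on the low dose and 11.4, 2000.3 and 3679 with DC-101. All 3 low-dose tumors of the DC-101 experiment lay above 3 of the 4 vehicle tumors but overlapped with vehicle 3, and the log2 change of Hpx was 3.07 (SE 1.98) with an adjusted p of 0.433 (edgeR).

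Hpx in the anti-PD1 experiment stood at 1514, 876 and 1166 CPM in the vehicle tumors, 445, 299 and 146 on the low dose, 178, 507 and 418 with anti-PD1 and 2133, 577 and 588 with the combination. All tumors of both single treatments lay below the vehicle tumors and the combination overlapped with them. Of all genes, 7.36% for the low dose and 9.2% for anti-PD1 were lower without overlap. The log2 change of Hpx was −2.0 (SE 0.61) for the low dose (adjusted p = 0.265, edgeR), −1.69 (SE 0.60) for anti-PD1 (adjusted p = 0.276) and −0.11 (SE 0.58) for the combination (adjusted p = 0.973). DESeq2 called Hpx under the low dose here, at an adjusted p of 0.0350. These 3 comparisons share their 3 vehicle libraries, and a shift of those libraries moves all 3 estimates together. Hp went from 727 to 1573 CPM in the vehicle tumors to 243 to 675 on the low dose, 197 to 577 with anti-PD1 and 760.0 to 2267 with the combination, and its log2 changes were −1.63, −1.65 and 0.07. Hp in the DC-101 experiment stood at 44.7, 230.2, 676 and 19.1 CPM in the vehicle tumors, 1495, 424 and 3346 on the low dose and 19.8, 1701 and 3789 with DC-101, and in vehicle 1 and 4 it stood less far under vehicle 3 than Hpx did.

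The orosomucoids, acidic plasma proteins that carry drugs and damp inflammation, lie near each other on chromosome 4 (GRCm38, Orm1 at 63344560 to 63348163 and Orm2 at 63362449 to 63365878, plus strand), with Orm3 between them. Of the 676 stretches of 100 bases in each transcript, 47 (6.95%) also occur in the other gene, so that a small share of their reads could not be placed on 1 of them. In the DC-101 experiment Orm2 stood at 0.0877, 5.18, 15.1 and 0.18 CPM in the vehicle tumors, 64.7, 24.6 and 197 on the low dose and 0.993, 41.5 and 140.0 with DC-101, the first resting on as few as 2 counts in a library. The low-dose tumors all lay above the vehicle tumors (6.93% of all genes did so), while DC-101 overlapped with vehicle. The low-dose log2 change was 4.22 (SE 1.75), at an adjusted p of 0.272 (edgeR). With regorafenib alone at 2 doses, Orm1 ran over 25.5 to 208 CPM in vehicle, 35.1 to 417 on the low dose and 135 to 425 on the high dose, and Orm2 over 10.04 to 102, 8.84 to 108 and 76.2 to 129 CPM, all overlapping. For Orm1 the DC-101 experiment's low-dose range of 53.5 to 462 CPM overlapped with the 0.702 to 66.8 of vehicle, and its log2 change was 3.46 (SE 1.77). Orm1 in the anti-PD1 experiment was lower in all tumors of the low dose (34.7 to 89.04 CPM) and of anti-PD1 (26.7 to 65.8 CPM) than in vehicle (119 to 230.3 CPM). So were 7.36% and 9.2% of all genes. The log2 changes of Orm1, −1.29 (SE 0.59) and −1.69 (SE 0.60), missed the threshold at adjusted p of 0.423 and 0.276 (edgeR).

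Apcs, a pentraxin that binds amyloid and dead cells, is on chromosome 1 (GRCm38, 172893961 to 172895041, minus strand), and Itih4, an inter-alpha-trypsin inhibitor heavy chain that plasma kallikrein cleaves, on chromosome 14 (30886476 to 30902353, plus strand). Itih4 in the dose experiment stood at 53.6, 187, 149 and 461 CPM in the vehicle tumors, 105, 151 and 1073 on the low dose and 3155, 939 and 213 on the high dose. High-dose tumors 1 and 2 lay above all vehicle tumors and tumor 3 among them. The log2 change of Itih4 for the high dose, 2.75 (SE 1.10), was the largest of the members in that comparison, at an adjusted p of 0.0975 (edgeR). Without high-dose tumor 3 it passed the threshold, at a log2 change of 3.20 and an adjusted p of 0.0436, in a fit that called 41.1% of all genes. On all libraries DESeq2 called it at 2.79 and an adjusted p of 0.0192, where it called 31.9% of all genes.

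Itih4 in the DC-101 experiment stood at 1.36, 50.97, 253 and 0.764 CPM in the vehicle tumors, 819, 140.1 and 1538 on the low dose and 5.4, 323 and 1848 with DC-101. The groups overlapped, and the log2 changes of 3.44 (SE 2.06) and 3.25 (SE 2.05) had adjusted p of 0.403 and 0.5 (edgeR). Apcs followed the same order of libraries, from 0.225 to 111.61 CPM in vehicle to 47.8 to 530.3 on the low dose and 2.03 to 559 with DC-101. In the dose experiment Apcs ran over 26.3 to 214 CPM in vehicle, 52.02 to 410.4 on the low dose and 102 to 656 on the high dose, with a high-dose log2 change of 1.66 (SE 0.93) (adjusted p = 0.209, edgeR). Under anti-PD1 Apcs stood at 33.05, 66.2 and 33.02 CPM against 260.2, 106 and 227 in the vehicle tumors. The groups did not overlap, as for 9.2% of all genes that were lower. The log2 change of Apcs was −2.17 (SE 0.58), at an adjusted p of 0.249 (edgeR) that DESeq2 put at 0.0143.

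Saa1 and Saa2 lie back to back on chromosome 7 (GRCm38, Saa1 at 46740497 to 46742980, minus strand, and Saa2 at 46751790 to 46754313, plus strand), with Saa3 nearby (46711998 to 46715700, minus strand). Their coding sequences are shown because reads of such close copies could be misplaced. Each has 369 bases in 3 coding exons, taken from Gencode M21 on GRCm38, of which bases 61 to 360 are printed. Capitals mark bases that differ between Saa1 and Saa2 (18 over the whole coding sequence, 95.1% identical) or, in Saa3, from Saa1 (99 over the whole, 73.2% identical).
Saa1 coding: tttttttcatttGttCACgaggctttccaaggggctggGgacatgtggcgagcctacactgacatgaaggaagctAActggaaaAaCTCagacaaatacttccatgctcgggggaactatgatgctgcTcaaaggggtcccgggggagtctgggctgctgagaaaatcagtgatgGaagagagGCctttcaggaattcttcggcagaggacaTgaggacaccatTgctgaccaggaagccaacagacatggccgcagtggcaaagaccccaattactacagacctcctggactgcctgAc
Saa2 coding: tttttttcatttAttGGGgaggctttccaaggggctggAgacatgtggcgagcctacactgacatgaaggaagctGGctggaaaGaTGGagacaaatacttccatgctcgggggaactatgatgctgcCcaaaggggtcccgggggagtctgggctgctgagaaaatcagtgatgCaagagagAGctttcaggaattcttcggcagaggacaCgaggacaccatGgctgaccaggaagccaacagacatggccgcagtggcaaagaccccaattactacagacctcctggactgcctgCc
Saa3 coding: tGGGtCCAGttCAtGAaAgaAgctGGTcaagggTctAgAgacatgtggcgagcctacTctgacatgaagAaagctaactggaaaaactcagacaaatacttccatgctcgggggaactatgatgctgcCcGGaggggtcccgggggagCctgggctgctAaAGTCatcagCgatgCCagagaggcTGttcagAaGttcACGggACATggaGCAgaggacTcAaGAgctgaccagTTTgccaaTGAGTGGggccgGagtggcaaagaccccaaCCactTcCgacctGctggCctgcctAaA
No stretch of 100 bases of the 3 transcripts occurs in another gene, and the differences are spread along the coding sequence, although shorter stretches are shared.

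The promoters of the 3 genes are shown because the levels of Saa1 and Saa2 ran together over the libraries (r = 0.98) and Saa3 showed little relation to either (r = 0.07 and 0.08). Each line gives the 200 bases from −250 to −51 of the RefSeq start on GRCm38.p6, 5′ to 3′ on the gene's strand, and capitals mark the match to the C/EBP motif TTGCNNAA, searched on both strands and found in 8.11% of 32851 promoters.
Saa1 promoter, chr7:46743031-46743230, minus strand: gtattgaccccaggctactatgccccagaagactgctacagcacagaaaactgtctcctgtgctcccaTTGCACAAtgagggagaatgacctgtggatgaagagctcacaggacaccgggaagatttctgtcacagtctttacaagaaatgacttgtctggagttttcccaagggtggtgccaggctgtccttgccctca
Saa2 promoter, chr7:46751583-46751782, plus strand: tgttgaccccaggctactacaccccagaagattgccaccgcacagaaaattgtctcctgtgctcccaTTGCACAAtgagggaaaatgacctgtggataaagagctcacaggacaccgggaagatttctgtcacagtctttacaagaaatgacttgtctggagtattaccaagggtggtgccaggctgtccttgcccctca
Saa3 promoter, chr7:46715727-46715926, minus strand: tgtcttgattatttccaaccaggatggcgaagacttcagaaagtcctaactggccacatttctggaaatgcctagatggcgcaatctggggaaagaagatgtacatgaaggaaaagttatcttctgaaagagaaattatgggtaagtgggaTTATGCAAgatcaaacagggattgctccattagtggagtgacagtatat
Saa1 and Saa2 are 93.5% identical over the aligned window, while Saa3 is 51.0% and 51.4% identical to them and holds its match elsewhere and on the other strand. The same C/EBP letters were found in the windows of Hpx, Orm2 and 1 of the 2 RefSeq entries of Cp. The STAT3 motif TTCNNNGAA (5.76% of promoters) was found only in Apcs among the 9 entries of 8 members, the NF-kB consensus (5.71%) in none, and Itih4 held no match. Hp and Orm1 were not analysed for promoter motifs.

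The largest estimates of any member were those of Saa1 and Saa2 for the low dose in the DC-101 experiment. In the dose experiment Saa1 stood at 3.33, 40.9, 3.67 and 61.2 CPM in the vehicle tumors, 10.2, 13.4 and 97.4 on the low dose and 135, 169 and 97.1 on the high dose. All high-dose tumors lay above all vehicle tumors for Saa1 and for Saa2 (11.8% of all genes separated in this way), and the low dose overlapped with vehicle. The high-dose log2 change was 2.29 (SE 1.12) for Saa1 and 2.32 (SE 1.16) for Saa2, at adjusted p of 0.157 and 0.167 (edgeR).

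Saa1 in the DC-101 experiment stood at 0.307, 1.29, 7.97 and 0.719 CPM in the vehicle tumors, 218, 48.6 and 326 on the low dose and 3.93, 7.92 and 161 with DC-101. Saa2 stood at 0.132, 0.47, 2.87 and 0.764 CPM in the vehicle tumors, 137, 32.5 and 192 on the low dose and 2.89, 2.03 and 86.4 with DC-101. Every low-dose tumor lay above every vehicle tumor for both genes and for Orm2 (6.93% of all genes did so), whereas DC-101 tumor 1 lay among the vehicle tumors for Saa1 and tumor 2 for both. The low-dose log2 change was 6.27 (SE 1.65) for Saa1 (adjusted p = 0.148, edgeR) and 6.85 (SE 1.62) for Saa2 (adjusted p = 0.123), from vehicle libraries with 7 to 164 counts of Saa1 and 3 to 59 of Saa2. DESeq2 called both, at adjusted p of 0.00103 and 0.000102, and called Saa2 under DC-101 at 0.0276. With DC-101 the log2 change was 4.50 (SE 1.55) for Saa1 (adjusted p = 0.332, edgeR) and 4.86 (SE 1.52) for Saa2 (adjusted p = 0.325).

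In the anti-PD1 experiment the vehicle tumors themselves spread widely, with Saa1 at 3.99, 43.8 and 104 CPM. Saa1 stood at 31.1, 18.1 and 18.99 CPM on the low dose, 7.13, 16.1 and 2.99 with anti-PD1 and 199.6, 32.3 and 13.6 with the combination, and every treated group overlapped with vehicle. The log2 change of Saa1 was −1.15 (SE 1.08) for the low dose, −2.54 (SE 1.13) for anti-PD1 and 0.69 (SE 1.07) for the combination, and none passed the threshold (edgeR, adjusted p = 0.75, 0.354 and 0.879). Saa2 followed with −1.65, −3.10 and 0.23.

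Saa3 took a course of its own. In the dose experiment it stood at 4.07, 10.9, 15.9 and 11.6 CPM in the vehicle tumors, 17.7, 16.8 and 6.43 on the low dose and 17.996, 27.4 and 13.5 on the high dose, with all 3 groups overlapping. Saa3 in the DC-101 experiment stood at 142, 107, 45.6 and 28.8 CPM in the vehicle tumors, 31.3, 249 and 19.4 on the low dose and 6.65, 48.1 and 31.8 with DC-101, also overlapping, and it was highest in vehicle 1 among the vehicle tumors, 1 of the libraries with very little Alb, while vehicle 4 and DC-101 1, the others with very little Alb, were the lowest of their groups. In the anti-PD1 experiment Saa3 stood at 57.6, 480.3 and 748 CPM in the vehicle tumors, 34.8, 74.03 and 15.04 on the low dose, 6.6, 3.63 and 28.8 with anti-PD1 and 13.5, 28.6 and 51.8 with the combination. The vehicle tumors lay above all anti-PD1 tumors (9.2% of all genes were lower with no overlap) and all combination tumors (8.12%), and overlapped with 1 low-dose tumor.

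The log2 change of Saa3 was −5.04 (SE 1.11) for anti-PD1 (adjusted p = 0.249, edgeR), −3.38 (SE 1.02) for the low dose (adjusted p = 0.265) and −3.78 (SE 1.04) for the combination (adjusted p = 0.475), from the same vehicle libraries. DESeq2 called Saa3 in all 3, at adjusted p of 7.4e-05, 0.0134 and 0.00800. The 5 Kupffer cell markers (Clec4f, Timd4, Vsig4, Cd5l and Marco, of liver macrophages) were also lower there: their summed CPM was 55.9 to 310 in the vehicle tumors, 1.08 to 16.3 on the low dose, 3.69 to 28.7 with anti-PD1 and 19.7 to 43.3 with the combination, with all 5 below vehicle in each and 0 called by edgeR (5, 4 and 3 at an unadjusted p under 0.05, and 2, 3 and 0 by DESeq2). Marco, a macrophage scavenger receptor, stood at 1.56, 1.98 and 26.5 CPM in the vehicle tumors and was listed at 0 in a low-dose and an anti-PD1 library. The summed CPM of the 10 neutrophil markers was 60.1 to 288 in vehicle, 46.1 to 117 on the low dose, 69.0 to 86.3 with anti-PD1 and 74.3 to 137 with the combination, all overlapping with vehicle. Of the 9 neutrophil markers tested, 8, 9 and 8 had a log2 change below 0 in these comparisons, with medians of −2.64, −1.80 and −0.78 and 0 called by edgeR (6, 5 and 2 at an unadjusted p under 0.05, and 4, 1 and 1 by DESeq2). Over all genes the shares there were 11.8%, 13.7% and 8.2% unadjusted and 2.56%, 3.7% and 0.903% by DESeq2. The summed CPM of the 10 macrophage markers overlapped between all these groups. In the other experiments all 5 Kupffer cell markers lay above 0. Their medians were 3.15 for the low dose and 3.25 for DC-101 in the DC-101 experiment, and 0.48 and 1.07 for the low and the high dose in the dose experiment. Saa3 overlapped between the groups there. The part of these markers in the Saa3 result was not tested.

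Over the 32 libraries, with each experiment's mean subtracted, the genes most like Saa3 among 15429 were Upk1b (r = 0.88), Cyp1b1 (r = 0.81), Cdh11 (r = 0.80), Lrrn2 (r = 0.79) and Prickle1 (r = 0.79). Those most like Hp were F12, Kng2, Vtn, Itih2 and Fetub, each at r = 0.98, all genes of plasma proteins. Against the other members Saa3 had r of 0.04 to 0.15.

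Ceruloplasmin, the copper-carrying ferroxidase of plasma, is on chromosome 3 (GRCm38, 19957054 to 20009145, plus strand) and had the narrowest range of the members, 33.6-fold over the 32 libraries. Cp in the dose experiment stood at 403, 775, 504 and 661 CPM in the vehicle tumors, 161, 226 and 822 on the low dose and 2080.3, 646 and 461 on the high dose. Cp in the DC-101 experiment stood at 174, 384, 336 and 138 CPM in the vehicle tumors, 304, 329.9 and 1547 on the low dose and 408, 963 and 1161 with DC-101. All DC-101 tumors lay above all vehicle tumors (5.25% of all genes did so), including DC-101 1, which held very little Alb. The log2 change of Cp for DC-101 was 1.71 (SE 0.66) at an adjusted p of 0.354 (edgeR).

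In the anti-PD1 experiment Cp stood at 692, 447 and 850.4 CPM in the vehicle tumors, 324, 61.9 and 287 on the low dose, 268, 212 and 659 with anti-PD1 and 500.027, 352 and 454 with the combination. Low-dose tumors lay below vehicle without overlap, as they did for Hp, Hpx, Orm1, Apcs and Itih4 (7.36% of all genes were lower in this way). The log2 change of Cp was −1.56 (SE 0.58) for the low dose (adjusted p = 0.332, edgeR) and −0.80 (SE 0.57) for anti-PD1 (adjusted p = 0.565).

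Within the 32 libraries the levels of 5 members followed Alb closely after each experiment's mean was subtracted. Pearson's r with Alb was 0.97 for Hpx (Spearman's rho 0.94), and 0.95 for Hp, Orm1, Apcs and Itih4, each with a permutation p of 1e-05, the smallest that 100000 permutations can give. Orm2 stood at r = 0.84 (rho 0.77) with the same p, and at 0.70 over the 29 libraries other than the 3 with very little Alb. The relation was looser for Saa1 (r = 0.71, rho 0.69, permutation p = 0.00037), Cp (r = 0.66, rho 0.66, permutation p = 5e-05) and Saa2 (r = 0.61, rho 0.60, permutation p = 0.00253), and Saa3 showed none that passed (r = 0.23, rho 0.24, permutation p = 0.188). These 10 relations were computed, and both genes of each share a library, its depth and its scaling. Without the 2 libraries farthest from the median of Alb, r was 0.96 for Hpx, 0.61 for Saa1, 0.58 for Cp, 0.52 for Saa2 and 0.35 for Saa3. Within the 3 experiments, in the order dose, DC-101, anti-PD1, it was 0.94, 0.99 and 0.89 for Hpx, 0.69, 0.96 and 0.33 for Orm2, 0.76, 0.78 and 0.41 for Saa1, 0.78, 0.79 and 0.43 for Cp, and 0.28, −0.02 and 0.72 for Saa3.

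**Figure D3:**
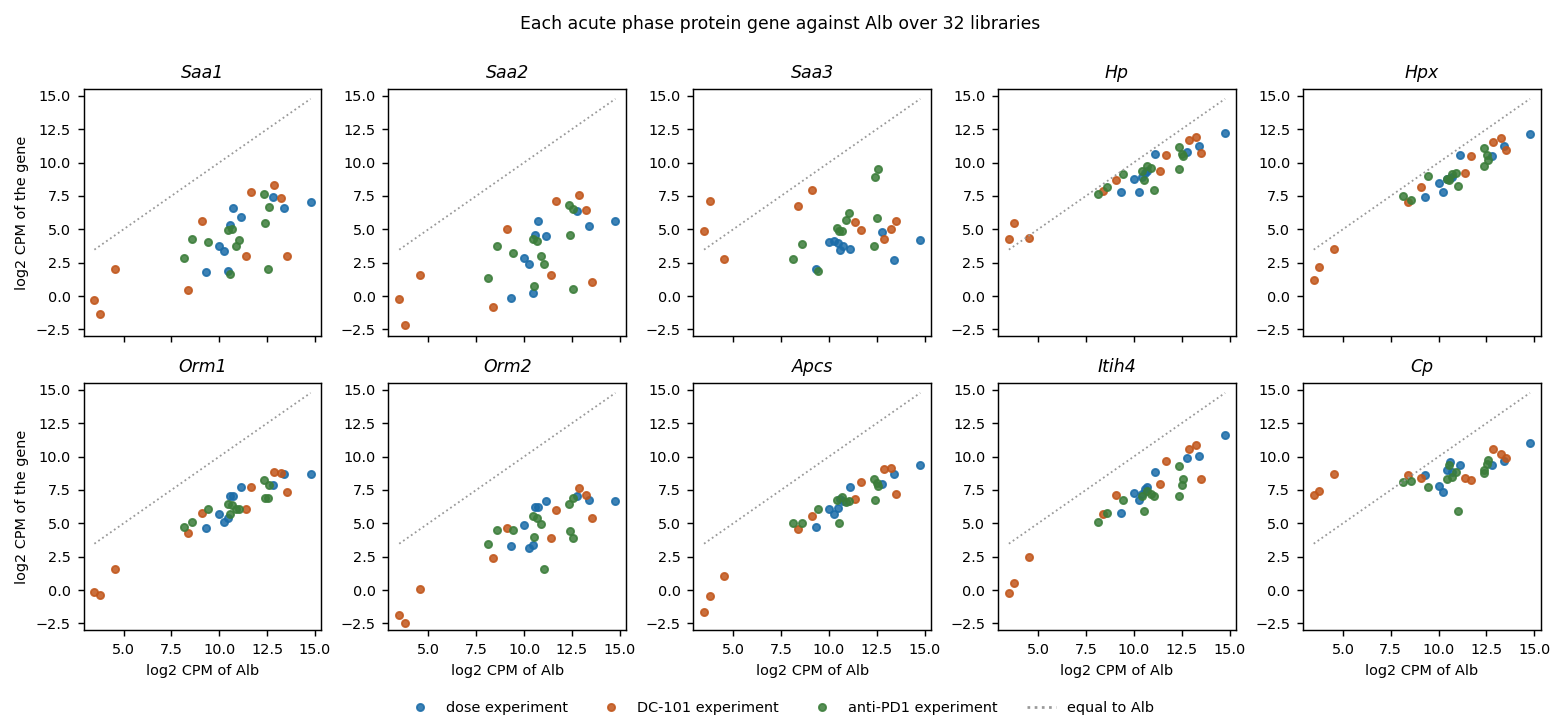
Log2 CPM of each member against log2 CPM of Alb, 1 point per library, with the experiment shown by color. Hpx, Apcs and Itih4 lie along a line over the whole range of Alb, while Saa3 and Cp span a narrower range and scatter more widely around any such line.

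Division by Alb narrowed the spread of some members and widened that of others. The range of Hpx over the libraries shrank from 1995-fold in CPM to 5.17-fold relative to Alb, that of Itih4 from 3684-fold to 10.3-fold and that of Apcs from 2068-fold to 9.28-fold. For Saa3 it widened from 201-fold to 17290-fold and for Cp from 33.6-fold to 596-fold. Hpx lay at 14.2 to 73.5% of the Alb level in CPM, with a median of 31.3%, whereas Saa3 ran from 0.0606 to 1048% and Cp from 2.95 to 1757%. Saa1, at 0.0678 to 17.3% of Alb, kept most of its range (816-fold in CPM and 256-fold relative to Alb).

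Relative to Alb, the members did not move as a block. For the low dose and the high dose in the dose experiment 1 and 3 of the 10 members had a higher mean relative to Alb than vehicle, beside 4.81% and 5.84% of all genes, and for the high against the low dose 4 did (10.6%). In the DC-101 experiment 7 members did for the low dose, beside 0.967% of all genes, and 3 for DC-101, beside 0.613%. Of the anti-PD1 experiment's comparisons, 9 members did for each of the 3 treatments, where 99.1%, 99.5% and 97.2% of all genes did so too and Alb itself was lower. In the dose and DC-101 experiments Alb had estimates above 0. The median of all genes relative to Alb was −4.46 for the DC-101 experiment's low dose and −3.70 for DC-101. The small shares there follow from Alb and do not set the members apart from other hepatocyte genes. With the 20 hepatocyte genes as reference, 7 members were higher for that low dose and 1 for DC-101. The exact permutation test over libraries cannot go below 0.05714 for 4 against 3 libraries or 0.1 for 3 against 3.

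In the DC-101 experiment Itih4 relative to Alb (log2) stood at −3.22, −2.72, −3.40 and −3.70 in the vehicle tumors, −1.99, −1.96 and −2.28 on the low dose, and −2.08, −5.19 and −2.39 with DC-101. The low-dose tumors of Itih4 lay above all its vehicle tumors, as they did for Hpx and Apcs relative to Alb, and 0.155% of all genes separated in this way. That share is small because Alb was higher on the low dose, and other hepatocyte genes were not compared in this way. The difference in mean was 1.18 for Itih4, 0.81 for Apcs and 0.69 for Hpx (exact permutation p = 0.05714 each, the smallest possible, two-sided, adjusted p = 0.167 over all genes). With DC-101 all members overlapped with vehicle relative to Alb.

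In the dose experiment Cp relative to Alb (log2) stood at −0.66, −0.99, −1.47 and −1.75 in the vehicle tumors, −2.92, −2.19 and −3.71 on the low dose, and −3.75, −3.45 and −1.86 on the high dose. All treated tumors lay below all vehicle tumors, for which the background was 2.21% of all genes for the low dose and 19.4% for the high dose. The difference in mean was −1.72 for the low dose and −1.80 for the high dose (exact permutation p = 0.05714 each, two-sided, adjusted p = 0.814 and 0.208). Under anti-PD1 Cp relative to Alb was instead higher than vehicle in all 3 treated tumors, by 2.20, together with Hp and Hpx, where 91.2% of all genes were. Apcs and Itih4 were higher without overlap for the low dose there, as were 74.8% of all genes, and Hp, Hpx, Apcs and Itih4 for the combination, as were 28.2%.

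**Figure D4:**
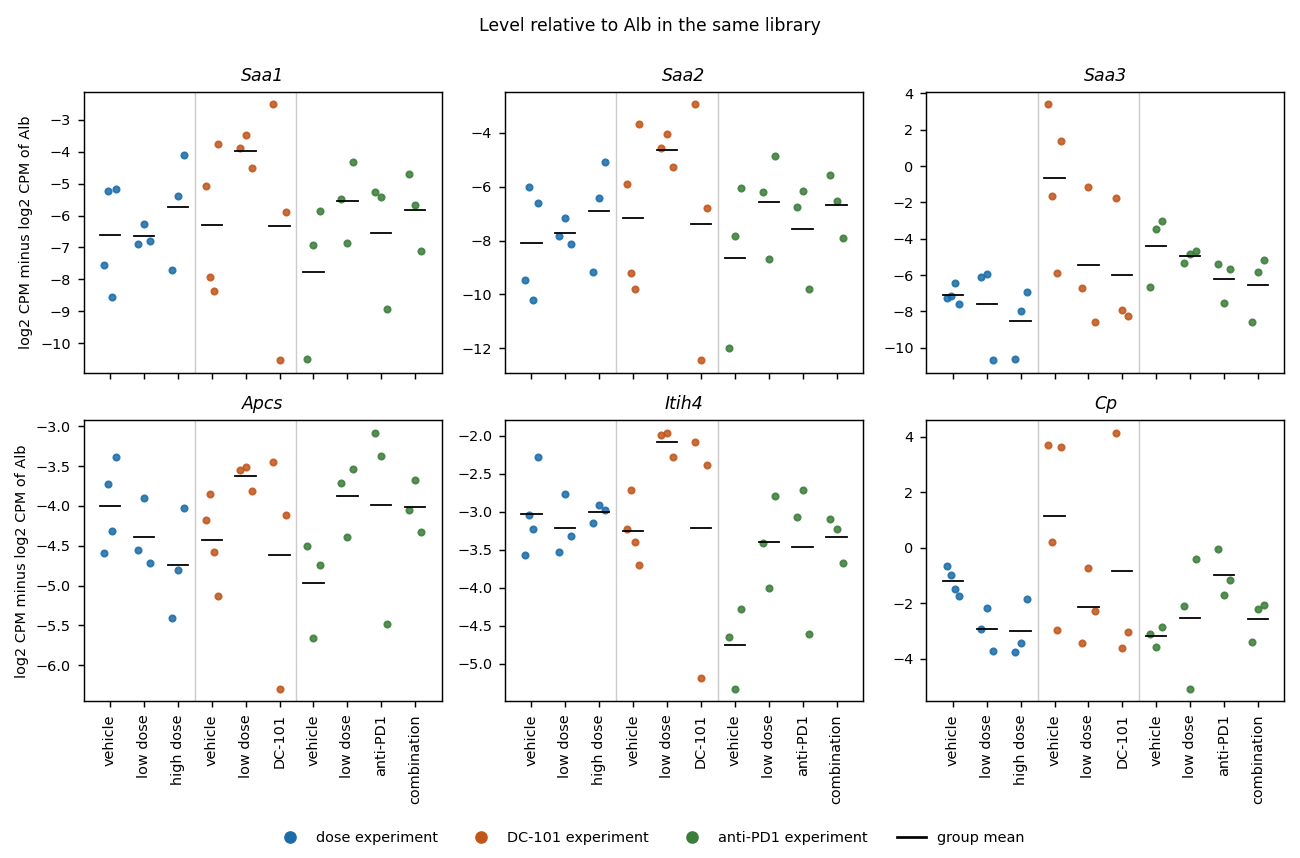
Levels of Saa1, Saa2, Saa3, Apcs, Itih4 and Cp relative to Alb in the same library (log2), by group. Points are libraries and bars group means, with a y axis of its own per gene. Apcs and Itih4 of the low dose lie above all vehicle tumors in the DC-101 experiment. Cp of both doses lies below all vehicle tumors in the dose experiment.

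The low dose was given in all 3 experiments, and its estimates for the members differed in sign between them. For Saa1 the log2 change of the low dose was 0.56 beside the high dose, 6.27 beside DC-101 and −1.15 beside anti-PD1. The test of a difference between the experiments gave unadjusted p under 0.05 for 7 members (9.52% of all genes), lowest for Saa2 and Saa1 (adjusted p = 0.392 for both, edgeR), and called 0 of 10, as did limma-voom, each beside 0% of all genes, while DESeq2 called 2, beside 0.643%. Fitted over the 9 low-dose and 11 vehicle libraries with the experiment as a term, no member was called by edgeR, DESeq2 or limma-voom, beside 1.77%, 5.73% and 1.96% of all genes. At an unadjusted p under 0.05 the members numbered 0 by edgeR, beside 16% of all genes. The pooled log2 change was 1.80 (SE 1.28) for Saa1, 1.34 (SE 0.97) for Itih4, −0.61 (SE 0.69) for Saa3 and −0.11 (SE 0.50) for Cp. Leaving out the DC-101 experiment turned the pooled estimate of Saa1 to −0.20 and those of Saa2, Hp, Hpx, Orm1, Orm2, Apcs and Alb below 0. Relative to Alb, 7 of the 10 members had a pooled mean above vehicle (2.53% of all genes, whose median was −1.08). With the hepatocyte genes as reference 5 of the 10 did, at a median of 0.016. Relative to Alb, the difference of Itih4 was 0.76, with 7 of 9 low-dose libraries above the mean of their vehicle group. Its exact permutation p was 0.01257 (two-sided, adjusted p = 0.574 over all genes), and 1.18% of all genes had an exact p under 0.05.

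Around the members, the other 22 positive acute phase genes of the list mostly had estimates of the same sign as the members. Of 20 tested for the high dose 18 had a log2 change above 0, and the median over the 20 was 2.47. At an unadjusted p under 0.05 there were 13 of the 20, Cd14 among them, beside 40.1% of all genes. The edgeR test called 2, DESeq2 12 (11 higher) and limma-voom 1, beside 15.6%, 31.9% and 8.16% of all genes. Complement C3 rose by 2.64 (SE 0.76, adjusted p = 0.0484, edgeR) and Cd14, the monocyte co-receptor for endotoxin, fell by 1.25 (adjusted p = 0.0187), both calls being lost without any 1 of the vehicle libraries and that of C3 also without high-dose tumor 1 or 2. For the low dose 17 of 20 lay above 0 in the dose experiment and 20 of 21 in the DC-101 experiment, and for DC-101 19 of 21. In these edgeR called 0, with 1, 5 and 3 at an unadjusted p under 0.05, beside 4.94%, 17.1% and 13.2% of all genes. DESeq2 called 0, 2 and 0, beside 0.514%, 6.8% and 2.31%. Among the anti-PD1 experiment's groups 18 of 21 lay below 0 for the low dose, 20 of 21 for anti-PD1 and 14 of 21 for the combination. Again edgeR called 0, with 12, 13 and 2 at an unadjusted p under 0.05, beside 11.8%, 13.7% and 8.2% of all genes. DESeq2 called 5, 6 and 0 in these comparisons, beside 2.56%, 3.7% and 0.903%. Itih3, a relative of Itih4, had the smallest p in the first and second of these, at −2.12 (adjusted p = 0.245, edgeR) and −2.36 (adjusted p = 0.249).

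The estimates of the 7 negative acute phase genes mostly had the same sign as those of the positive ones. All 7, Alb and the iron carrier transferrin (Trf) among them, lay above 0 for the low and the high dose in the dose experiment and for both treatments in the DC-101 experiment, and below 0 for the low dose and anti-PD1 in the anti-PD1 experiment. The edgeR test called 0 in every comparison, with 6 at an unadjusted p under 0.05 for the high dose, 4 for the low dose in the anti-PD1 experiment and 6 for anti-PD1, where DESeq2 called 6, 3 and 4. Over all genes the shares there were 40.1%, 11.8% and 13.7% unadjusted and 31.9%, 2.56% and 3.7% by DESeq2. The median log2 change of the 7 was 3.54 for the high dose, where that of the members was 1.69, and 2.60 for the low dose in the DC-101 experiment, where that of the members was 3.26. The 20 hepatocyte genes had medians of 4.29 and 3.15 in these comparisons. For the high dose all 20 lay above 0, all at an unadjusted p under 0.05, and DESeq2 called all 20 higher and limma-voom 0. Over all genes the shares were 40.1% unadjusted, 31.9% by DESeq2 and 8.16% by limma-voom. By edgeR 4 of the 20 rose, where 8.8% of all genes were called higher. Among the 4 were the uricase Uox (4.40, adjusted p = 0.0459, edgeR), Hpd of tyrosine breakdown (6.35, adjusted p = 0.0468) and the cytochrome Cyp2e1 (5.41, adjusted p = 0.0483). Each of the genes named lost its call without any 1 of the 4 vehicle libraries and without high-dose tumor 1 or 2. Over the pooled low-dose comparison edgeR called 1 of the 20 and DESeq2 2, beside 1.77% and 5.73% of all genes. Ass1, the urea cycle's argininosuccinate synthase, rose by 0.93 (SE 0.15, adjusted p = 0.00265, edgeR). Its call was kept without any 1 of the 20 libraries but lost without the dose experiment and without the DC-101 experiment. Ass1 held 1055 counts or more in every library, whereas Hpd went down to 4 and Cyp2e1 to 13. Whether the rise of Ass1 follows liver content was not tested.

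Of the 20 cytokine and signaling genes that drive the acute phase, edgeR called 5 for the high dose, beside 15.6% of all genes. DESeq2 called 6 and limma-voom 3, beside 31.9% and 8.16%, and 4 of the 5 of edgeR are given here. Il1b, which codes for IL-1β, stood at 45.2, 69.1, 60.8 and 27.9 CPM in the vehicle tumors, 70.7, 45.6 and 73.6 on the low dose and 5.43, 9.24 and 7.88 on the high dose. All high-dose tumors lay below all others. Of all genes, 16.6% lay below vehicle and 16.2% below the low dose without overlap. Il1b fell by 2.75 on the log2 scale against vehicle (SE 0.36, adjusted p = 0.0143, edgeR), a call lost without vehicle tumor 3, and by 3.07 against the low dose (SE 0.37, adjusted p = 0.00677). Il11, an IL-6 family cytokine, fell by 1.97 on the log2 scale (adjusted p = 0.0269, edgeR), while Nr3c1, the glucocorticoid receptor, rose by 0.48 (adjusted p = 0.044) and Lifr, a receptor of the IL-6 family, by 2.58 (adjusted p = 0.049). The calls of Il11, Nr3c1 and Lifr were lost without any 1 of the vehicle libraries or without high-dose tumor 2, and those of Nr3c1 and Lifr also without high-dose tumor 1. Il6 was low, at 0 to 11.5 CPM over the 32 libraries, and was not called by edgeR in any comparison. Outside the dose experiment edgeR called 0 of the 20, while DESeq2 called 4 for the low dose and 1 for DC-101 in the DC-101 experiment and 1 for the low dose in the anti-PD1 experiment, and for the pooled low dose DESeq2 and limma-voom called 1 each. Nfkbia, an NF-kB inhibitor and target, had the smallest p for the low dose and for DC-101 in the DC-101 experiment, at 0.86 (adjusted p = 0.0753, edgeR) and 0.69 (adjusted p = 0.309).

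Among the 12 receptors and partners of these proteins, the serum amyloid A receptors Fpr2 and Tlr2 fell on the high dose, while their higher levels on the low dose were not called in the dose experiment (edgeR, 0 of 12 receptors, 3 at an unadjusted p under 0.05 and 1 called by DESeq2). Fpr2 stood at 5.1, 7.71, 6.72 and 4.84 CPM in the vehicle tumors, 17.8, 9.84 and 14.6 on the low dose and 1.87, 1.83 and 0.902 on the high dose. Tlr2 stood at 38.9, 39.6, 48.4 and 42.5 CPM in the vehicle tumors, 90.02, 74.7 and 64.8 on the low dose and 13.6, 27.4 and 23.6 on the high dose. For both genes the low-dose tumors lay above all vehicle tumors, as they did for 6.92% of all genes, and the high-dose tumors below them, as they did for 16.6%.

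Against the low dose, the high dose gave lower Fpr2, with a log2 change of −3.20 (SE 0.38) (adjusted p = 0.00625, edgeR), lower Tlr2 at −1.83 (SE 0.25) (adjusted p = 0.00891) and lower Cd14 at −1.75 (SE 0.20) (adjusted p = 0.00546). The call of Tlr2 was lost without low-dose tumor 1. Hmox1, the enzyme that breaks down heme brought in by hemopexin, was higher by 1.09 (adjusted p = 0.0465, edgeR), a call lost without any 1 of the low-dose tumors or high-dose tumor 2. Against vehicle, Fpr2 was lower on the high dose, at −1.99 (adjusted p = 0.024, edgeR), and so was Tlr2, at −0.98 (adjusted p = 0.0381), calls lost without any 1 of the vehicle libraries and, for Tlr2, without high-dose tumor 2. Of the 10 macrophage markers, edgeR called 7 lower against vehicle, beside 6.82% of all genes, and 7 against the low dose, beside 2.48%, among them the Fc receptor Fcgr1 (−1.85 and −2.67) and the growth factor receptor Csf1r (−1.68 and −2.41). The calls of both against vehicle were lost without any 1 of the vehicle libraries, and that of Csf1r against the low dose without low-dose tumor 1 or 2. Their summed CPM was 2690.0 to 4535.0 in vehicle, 5577.0 to 7280.0 on the low dose and 946 to 2294.0 on the high dose, and their part in the changes of Fpr2, Tlr2, Cd14 and Il1b was not tested. The 9 neutrophil, 5 Kupffer cell and 8 fibroblast markers tested had 0 calls by edgeR in these comparisons (3, 0 and 3 at an unadjusted p under 0.05 against vehicle and 4, 0 and 2 against the low dose), where DESeq2 called 3, 0 and 2 against vehicle and 1, 0 and 2 against the low dose.

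Over the pooled low-dose comparison, Fpr2 rose by 1.14 (SE 0.25, adjusted p = 0.0272, edgeR), Tlr2 by 0.65 (SE 0.14, adjusted p = 0.0207), Cd14 by 0.71 (SE 0.16, adjusted p = 0.0307) and Fcgr1 by 0.73 (SE 0.18, adjusted p = 0.0405). Fpr2 stood at 6.01, 5.999, 12.7 and 3.1 CPM in the vehicle tumors and 17.6, 31.8 and 20.04 on the low dose in the DC-101 experiment. The groups did not overlap, as for 6.93% of all genes that were higher. In the anti-PD1 experiment Fpr2 stood at 11.7, 6.8 and 17.01 CPM in vehicle and 15.9, 17.5 and 11.7 on the low dose, where the groups overlapped. Of the 20 libraries, leaving out 1 ended the call of Tlr2 for low-dose tumor 2 of the dose and of the DC-101 experiment, of Fpr2 and of Cd14 for 5 libraries each and of Fcgr1 for 16. All 4 calls were lost without the dose experiment and without the DC-101 experiment. Cd163, the receptor for haptoglobin bound to hemoglobin, had the smallest p of the receptors for the low dose, anti-PD1 and the combination in the anti-PD1 experiment, at −4.76, −4.03 and −4.41, and was not called (adjusted p = 0.245, 0.249 and 0.469, edgeR). Of the 12 receptors and partners 7, 6 and 4 had an unadjusted p under 0.05 in these comparisons, beside 11.8%, 13.7% and 8.2% of all genes. DESeq2 called 4, 2 and 1, all lower, beside 2.56%, 3.7% and 0.903%. Cd163 stood at 8.65, 120.1 and 118 CPM in the vehicle tumors, 1.77, 6.92 and 0.494 on the low dose, 3.4, 1.07 and 10.6 with anti-PD1 and 4.57, 4.85 and 2.15 with the combination.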

How the data were processed

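RNA was extracted from snap-frozen tumor pieces and sequenced after TruSeq stranded mRNA library preparation. The authors deposited whole-number read counts per gene, 1 table per experiment, made per the labels with cutadapt 2.4 and STAR 2.7.2a on GRCm38, with Gencode M19 genes. Which strand column was taken is not given in the sources used here, so reads of overlapping antisense genes may be included. Gene positions came from Gencode M21 (99.93% of 54446 identifiers matched).

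Groups were taken from the labels. Within each experiment, genes passed edgeR's filterByExpr (minimum count 10, minimum total 15), were scaled by TMM and were tested in edgeR 4.0.16 (quasi-likelihood, robust) over all groups, with Benjamini-Hochberg adjustment over all genes tested (16525, 16138 and 16615 genes, and 15562 for the pooled fit with experiment as a term). Levels are CPM, or log2 CPM with a prior count of 2. Levels relative to Alb are differences of log2 CPM within a library, tested by exact two-sided permutation of libraries within experiments. DESeq2 1.42.0, limma-voom 3.58.1, other scaling, no filter, a replicate block, Alb as a covariate, a hepatocyte reference, a prior count of 0.5 and leaving out each library or experiment were alternatives. R 4.3.3, Python 3.11.15, NumPy 2.4.6, pandas 2.3.3, SciPy 1.17.1 and matplotlib 3.10.9 were used, and the scripts were tested on simulated data.

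The 10 members, Alb and 9 gene lists (other positive and negative acute phase genes, cytokines and signaling, receptors and partners, hepatocyte, macrophage, Kupffer cell, neutrophil and fibroblast genes) were chosen with earlier results of these data known. All members and Alb are named in every comparison. From the lists, up to 4 genes past the threshold per list and comparison, or else those with the smallest p, could be named, and Lifr, Il6 and some levels were added after their values were seen. Replicates of a group differed beyond counting noise (chi-square per degree of freedom of 12.9 to 834 over 36 pairs), so no library was counted as a repeat of another.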

Additional observations from a re-analysis of the deposited data

Results flagged for a closer look

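Relative to Alb, vehicle tumor 4 of the dose experiment stood apart from the other 3 vehicle tumors for Hpx, at −0.55 on the log2 scale, and for Hp, at −0.48, farther than Dixon's 95% critical value for 4 samples. It was the highest of its group in both, and also held the most Alb in CPM of the 4. These 2 flags came from 42 such tests in the groups of 4, and chance flags about 1 in 20.

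For Hpx and Orm1 relative to Alb, every low-dose tumor lay on one side of its vehicle mean in 1 experiment and on the other side in another, while none of the differences from vehicle passed its test. The difference from vehicle was −0.59 for Hpx in the dose and 0.69 in the DC-101 experiment. For Orm1 it was −0.52 in the dose, 0.51 in the DC-101 and 1.16 in the anti-PD1 experiment. These differences between experiments were not tested. The dose experiment's Hpx value includes vehicle tumor 4 in its vehicle mean.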

How the results depend on the processing

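Only DESeq2 and leaving out 1 library changed how many members were called, which edgeR put at 0 everywhere: DESeq2 called 1 for the high dose, DC-101 and the combination, and 2 for the low dose in the DC-101 and anti-PD1 experiments, anti-PD1 and the difference between experiments, and leaving out each library gave 0 to 1 for the high dose. With hepatocyte genes in place of Alb, members higher than the reference numbered 0 for the low dose and 1 for the high dose in the dose experiment, 2 for the high against the low dose and 1 for DC-101; leaving out each library gave 0 to 3 for the low dose in the dose experiment, 2 to 8 for the high against the low dose and 0 to 7 for DC-101. With Alb as a covariate, estimates turned sign for the low dose in the dose experiment (Saa1 −0.43, Saa2 −0.28, Hp −0.58, Hpx −0.62, Orm1 −0.47, Apcs −0.33, Itih4 −0.24), the high dose (Hp −0.43, Hpx −0.74, Orm1 −0.24, Apcs −0.42, Itih4 −0.091, Cp −0.75), the high against the low dose (Hpx −0.13, Apcs −0.085), DC-101 (Hp −0.31), the low dose in the anti-PD1 experiment (Saa1 0.088, Orm1 0.30, Itih4 0.51), anti-PD1 (Hpx 0.48, Orm1 0.37, Itih4 0.36) and the combination (Hpx 0.50, Orm1 0.48, Apcs 0.40). For the pooled low dose, Cp turned to 0.15 without the dose experiment, Saa1 −0.20, Saa2 −0.46, Hp −0.43, Hpx −0.53, Orm1 −0.16, Orm2 −0.48, Apcs −0.18 and Alb −0.023 without the DC-101 experiment, Saa3 0.32 and Cp 0.53 without the anti-PD1 experiment, and relative to the hepatocyte genes Hpx −0.25 and Orm1 −0.048. Orm2 for the low dose in the dose experiment, near 0, became 0.0058 by DESeq2, 0.072 by limma-voom, 0.006 with RLE factors and 0.052 unfiltered, Saa3 for the low dose in the DC-101 experiment −0.30 by limma-voom, and Hp for the combination −0.030 by limma-voom. Same-numbered libraries deviated together (r over 0.1) in 2 of 9 pairs in the dose experiment, 4 of 9 in the DC-101 and 6 of 18 in the anti-PD1 experiment, and the samples share only a number, not a pairing. A replicate block called no member, left 1 of 16525 genes called for the high dose and 1 for the high against the low dose, ended every call named for these comparisons and the pooled calls of Fpr2, Tlr2, Cd14 and Fcgr1, and turned Orm2 to 0.73 (low dose, dose experiment), Saa3 to −0.80 (low dose, DC-101 experiment), and Hp to −0.028 and Saa2 to −0.057 (combination). Of the calls named for the high dose, Alb as a covariate (99 genes called) and total count scaling (282 called, median of all genes −0.13) kept only Il1b and Fpr2; no filter ended those of Tlr2, Nr3c1, Lifr, C3, Uox, Hpd and Cyp2e1, and limma-voom those of Lifr, C3, Uox, Hpd and Cyp2e1. Total count scaling and no filter ended that of Hmox1 for the high against the low dose, Alb as a covariate the pooled calls of Cd14 and Fcgr1, and no filter that of Fcgr1. Leaving out each library in turn, the estimates that crossed 0 ranged for the low dose in the dose experiment from −1.18 to 1.34 (Saa1), −0.92 to 1.04 (Saa2), −1.09 to 1.29 (Hp), −1.15 to 1.48 (Hpx), −1.17 to 1.36 (Orm1), −1.31 to 0.63 (Orm2), −0.80 to 1.32 (Apcs), −0.71 to 1.77 (Itih4) and −0.34 to 2.08 (Alb); for the combination from −1.14 to 1.78 (Saa1), −1.60 to 1.89 (Saa2), −0.60 to 0.34 (Hp), −1.02 to 0.20 (Hpx), −1.07 to 0.32 (Orm1), −0.47 to 1.54 (Orm2), −0.83 to 0.17 (Apcs) and −0.49 to 0.79 (Itih4); and from −0.068 to 1.15 (Cp, high dose), −0.074 to 2.88 (Hpx, high against low dose), −1.66 to 0.79 (Saa3, low dose, DC-101 experiment), −1.97 to 0.43 (Orm2) and −2.25 to 0.013 (Saa2, both low dose, anti-PD1 experiment), and −0.59 to 0.10 (Cp, pooled). The cause was not tested. The depth of 16.8 to 27.7 M counts limits Saa1, Saa2, Orm1, Orm2, Apcs and Itih4 in vehicle libraries of the DC-101 experiment, where they rest on under 20 counts.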
